A study of Mus musculus with 6 samples.

Results

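The ADAMTS genes encode secreted metalloproteases that cut proteins of the extracellular matrix, and ADAMTSL genes encode relatives of them without the protease. A set of 8 ADAMTS and 2 ADAMTSL genes, given by symbol, was compared between IL-11+ and IL-11- fibroblasts of the inflamed colon. They are *Adamts1*, *Adamts2*, *Adamts4*, *Adamts5*, *Adamts9*, *Adamts10*, *Adamts12*, *Adamts15*, *Adamtsl1* and *Adamtsl4*, and all 10 were found among the 20327 gene symbols of each library. The cells came from C57BL/6 mice, 9 to 15 weeks old, that carry *Egfp* within the *Il11* gene of a bacterial artificial chromosome. All mice had been given 1.5% dextran sodium sulfate (DSS), which injures the colonic epithelium, to drink for 5 days, and day 7 was the day of analysis. Live (DAPI-negative) colon cells without Ter119, CD45, CD31 and EpCAM on their surface were divided by EGFP fluorescence into IL-11+ (EGFP+) and IL-11- (EGFP-) fibroblasts, with 3 libraries per group. Both groups therefore share the reporter and the colitis, and untreated mice were not analysed here. The sorted EGFP+ cells were not fully pure per the methods of the study, and the reporter is read from a transgene and not from *Il11* itself. The IL-11- gate is defined only by what is absent, EGFP and these surface proteins. The name fibroblasts is the study's, and IL-11- libraries also held tags of smooth muscle, pericyte and interstitial cell of Cajal markers, given below.

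ADAMTS proteases carry a catalytic domain followed by thrombospondin repeats that hold them to the matrix. Some cut the large hyaluronan-binding proteoglycans versican and aggrecan, some trim fibrillar procollagens so that fibrils can form, and some act on fibrillin microfibrils or cartilage oligomeric matrix protein. The ADAMTS-like (ADAMTSL) proteins have the repeats without the protease and bind microfibrils, while fibroblasts are a main source of both kinds of protein and of their substrates in the gut wall.

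RNA was measured by 5′Tag-seq, in which tags from the 5′ side of polyadenylated transcripts are counted per gene. Depth was 1057170, 1078179 and 1169817 tags for the IL-11- libraries, ordered by replicate number, against 1046538, 1022851 and 1049048 for the IL-11+ ones. Values are given below in that order as tags, or as normalized CPM, which are counts brought to a common depth after adjusting library sizes by the trimmed mean of M values (TMM). *Il11* was at 28, 51 and 89 tags in the IL-11- libraries against 1357, 732 and 2658 in the IL-11+ ones. This is not an independent check of the sort, which used EGFP from a transgene with *Il11* sequence. Whether tags of the transgene were counted as *Il11* was not tested. The 10 genes together took 3675, 3179 and 4407 tags in the IL-11- libraries against 3203, 2931 and 3812 in the IL-11+ ones. *Adamts1* and *Adamts4* held 82.9 to 85.7% of these tags in IL-11- and 87 to 89.2% in IL-11+ libraries, so the other 8 genes rest on shallower counts. Tags were amplified by PCR and are not independent molecules, so the exact counting interval given below for *Adamts8* can be too narrow. The 95% intervals of log2 fold changes, from edgeR, take in the spread between libraries, which that interval does not.

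All 10 genes passed the filter, which asks for 10 tags or more in 3 libraries or more, and were tested. Of all 9334 tested genes, 3.44% were called higher and 6.37% were called lower in IL-11+ fibroblasts (fold change over 2, adjusted p under 0.05). None of the 10 genes was called higher and 2 were called lower, *Adamts5* and *Adamtsl1*. By edgeR's quasi-likelihood test, 0 of the 10 were higher and 3 were lower at an unadjusted p under 0.05, against 26.7% of all tested genes in either direction, and DESeq2 called 0 higher and 2 lower. In normalized CPM, 1 of the 10 genes had every IL-11+ value above every IL-11- value, against 14.5% of all tested genes. Every IL-11+ value was below every IL-11- value for 3 of the 10, against 16.7% of all tested genes. The median of the 10 as log2 fold change was -0.42, against -0.01 for all tested genes. With so few genes, these counts and the median describe the 10 and were not tested as a set. With scaling by library totals only, the median of all tested genes was -0.10, and *Adamts1* and *Adamts4* moved from 0.07 and 0.04 to -0.01 and -0.04. In bulk RNA from sorted cells, fewer cells that express a gene and less RNA of that gene per cell cannot be told apart.

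**Figure D1:**
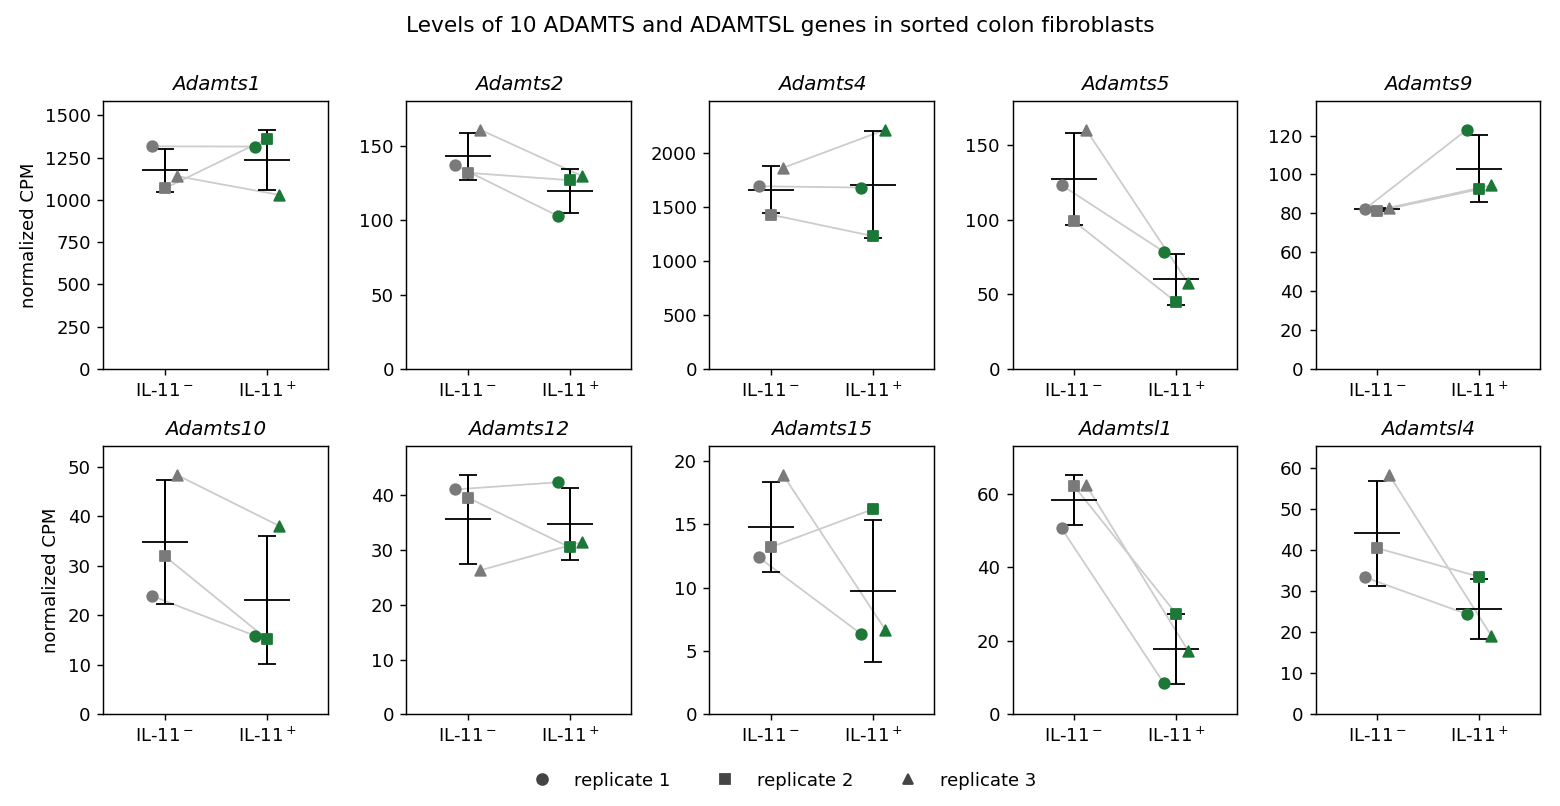
Normalized CPM (vertical axes, linear, from 0) of the 10 ADAMTS and ADAMTSL genes in IL-11- (grey) and IL-11+ (green) fibroblasts, with one symbol shape per replicate number, grey lines between same-numbered libraries, and black bars for the mean and SD (n = 3). *Adamts5* and *Adamtsl1* separate, with every IL-11+ library below every IL-11- library, while *Adamts1* and *Adamts4* overlap.

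Proteases of the versican and aggrecan group were covered by *Adamts1*, *Adamts4*, *Adamts5*, *Adamts9* and *Adamts15*. *Adamts5* encodes a major aggrecanase that also cuts versican. It was at 129, 105 and 195 tags in the IL-11- libraries against 74, 44 and 60 in the IL-11+ ones. Each IL-11+ library was below each IL-11- library, also after scaling, and IL-11- replicate 3 was the highest and IL-11+ replicate 2 the lowest of the 6. Means with SD (n = 3) were 127 ± 30.8 normalized CPM for IL-11- against 60.1 ± 17.1 for IL-11+, which is -1.09 as log2 fold change (SE 0.222, Benjamini-Hochberg adjusted p = 0.0019 in edgeR's quasi-likelihood test). Within same-numbered libraries the log2 ratios were -0.65, -1.15 and -1.48, so that all 3 pairs were lower in IL-11+. The 95% interval of the log2 fold change, -1.56 to -0.62, spans the fold threshold. Without IL-11- replicate 3 or without IL-11+ replicate 2, *Adamts5* fell short of that threshold at -0.91 in each case, with a Benjamini-Hochberg adjusted p of 0.0122 and 0.0208 in edgeR's quasi-likelihood test (0.00109 to 0.0208 over the 6 fits that left out a library).

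*Adamts4*, the other classical aggrecanase, was at 1769, 1515 and 2264 tags in the IL-11- libraries against 1582, 1209 and 2319 in the IL-11+ ones. The groups overlapped, and replicate 2 was the lowest and replicate 3 the highest of each group. Its log2 fold change was 0.04 with a 95% interval of -0.38 to 0.47. *Adamts1*, a protease with thrombospondin repeats that cuts versican, was at 1379, 1134 and 1390 tags in the IL-11- libraries against 1242, 1341 and 1080 in the IL-11+ ones. These libraries overlapped as well, and the log2 fold change was 0.07 (95% interval -0.29 to 0.43). For both genes the intervals leave out a 2-fold difference in either direction.

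*Adamts9* also cuts versican and was the member with the smallest p among those with a positive log2 fold change. Its values were 86, 86 and 101 tags in the IL-11- libraries against 116, 91 and 99 in the IL-11+ ones. The IL-11- libraries were nearly equal after scaling, at 82.1, 81 and 82.9 normalized CPM, and the IL-11+ libraries stood above them at 123, 92.4 and 94.4. The difference rested most on IL-11+ replicate 1. The log2 fold change of 0.33 (SE 0.178) was not called (95% interval -0.04 to 0.70, Benjamini-Hochberg adjusted p = 0.255 in edgeR's quasi-likelihood test). *Adamts15*, a further protease of this group, was at 13, 14 and 23 tags in the IL-11- libraries against 6, 16 and 7 in the IL-11+ ones. The groups overlapped through IL-11+ replicate 2, and with a 95% interval of -1.49 to 0.27 around a log2 fold change of -0.61, the interval includes both no difference and a decrease of over 2-fold.

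*Adamts1* and *Adamts5* are neighbours in the genome, and this places a called gene beside one that was not called. In GENCODE release M21 (GRCm38), *Adamts1* takes up bases 85793827 to 85803113 of chromosome 16 and *Adamts5* bases 85856173 to 85901828, both on the minus strand. The gap is 53.1 kb and holds 0 protein-coding genes. Their 95% intervals of the log2 fold change, -0.29 to 0.43 and -1.56 to -0.62, did not overlap, and the difference between the genes was not tested. *Adamts15* has a neighbour as well, *Adamts8*, at 20.1 kb on chromosome 9 and on the opposite strand. *Adamts8* was under the filter, at 5, 8 and 8 tags in the IL-11- libraries against 0, 1 and 0 in the IL-11+ ones, a ratio of IL-11- to IL-11+ of 18.8 with an exact 95% counting interval of 3.02 to 777. Near the 5′ end, where the tags are read, 0% of the 50-nt windows of the 10 genes occur in annotated transcripts of other genes.

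*Adamts2* encodes the main protease that removes the amino-terminal propeptide of type I procollagen. It was at 143, 140 and 196 tags in the IL-11- libraries against 97, 125 and 136 in the IL-11+ ones. After scaling, the IL-11+ libraries (103, 127 and 129.7 normalized CPM) were below the IL-11- libraries (137, 132 and 161), the nearest of them by little. The log2 fold change of -0.26 was not called (95% interval -0.62 to 0.10, Benjamini-Hochberg adjusted p = 0.377 in edgeR's quasi-likelihood test). *Adamts12*, which cuts cartilage oligomeric matrix protein, ranged from 32 to 43 tags in the IL-11- libraries against 30 to 40 in the IL-11+ ones, with a log2 fold change of -0.03 (95% interval -0.57 to 0.51). *Adamts10*, a protease of fibrillin microfibrils, was at 25, 34 and 59 tags in the IL-11- libraries against 15, 15 and 40 in the IL-11+ ones. Replicate 3 was the highest in both groups, so that the groups overlapped although each same-numbered pair was lower in IL-11+. Its log2 fold change was -0.59 (95% interval -1.32 to 0.15, Benjamini-Hochberg adjusted p = 0.308 in edgeR's quasi-likelihood test). Without IL-11+ replicate 3 it was called lower, with a log2 fold change of -1.16 and a Benjamini-Hochberg adjusted p of 0.0381 in edgeR's quasi-likelihood test, against 0.0381 to 0.718 over the 6 fits that left out a library.

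The 2 ADAMTS-like members have no protease domain. *Adamtsl1*, or punctin, had the lowest log2 fold change of the 10, at 53, 66 and 76 tags in the IL-11- libraries against 8, 27 and 18 in the IL-11+ ones. The highest IL-11+ library was well under the lowest IL-11- library. Means with SD (n = 3) were 58.4 ± 6.75 normalized CPM against 17.7 ± 9.48, which is -1.71 as log2 fold change (SE 0.302, 95% interval -2.35 to -1.08, Benjamini-Hochberg adjusted p = 0.000527 in edgeR's quasi-likelihood test). All 3 same-numbered pairs were lower in IL-11+, with log2 ratios of -2.58, -1.18 and -1.86. *Adamtsl1* spans 28 exons on the plus strand of chromosome 4, from 85514172 to 86428385 in GRCm38. It stayed called in each of the 20 alternative analyses, with log2 fold changes from -2.16 to -1.38.

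*Adamtsl4* encodes a protein that binds fibrillin-1 and supports the fibres that hold the lens of the eye. Its values were 35, 43 and 71 tags in the IL-11- libraries against 23, 33 and 20 in the IL-11+ ones. The IL-11+ tags were all lower, but after scaling IL-11+ replicate 2 (33.5 normalized CPM) met IL-11- replicate 1 (33.4), so the groups overlapped there, and IL-11- replicate 3 was the highest. The log2 fold change of -0.79 (SE 0.282) was not called (95% interval -1.38 to -0.20, Benjamini-Hochberg adjusted p = 0.0671 in edgeR's quasi-likelihood test). With the replicate number as a block, edgeR's quasi-likelihood test gave a Benjamini-Hochberg adjusted p of 0.0261 at a fold change under 2 (-0.78 as log2). Without IL-11+ replicate 2 the fold change passed 2 (-1.02 as log2), with a Benjamini-Hochberg adjusted p of 0.0518 in edgeR's quasi-likelihood test, and *Adamtsl4* was called in no alternative.

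**Figure D2:**
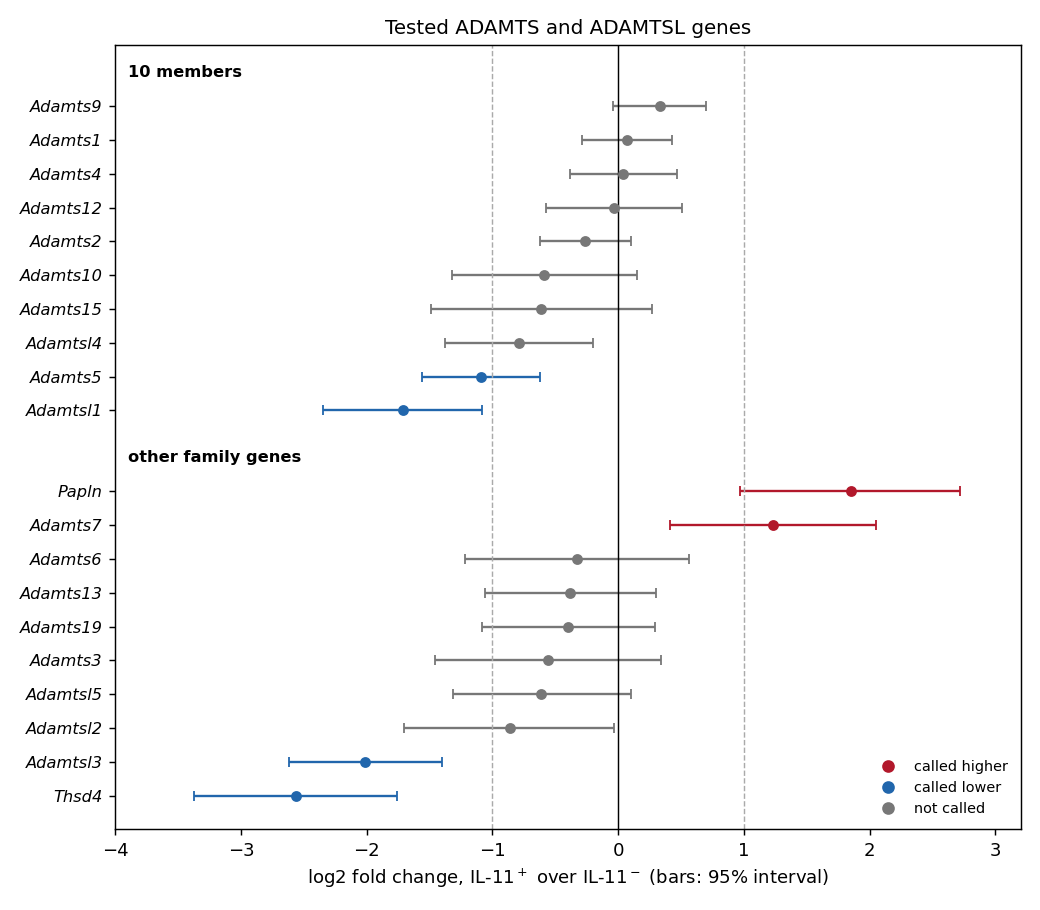
Log2 fold change of IL-11+ over IL-11- fibroblasts (horizontal axis, points) with its 95% interval (bars) for the 20 tested ADAMTS and ADAMTSL genes, the 10 members above and 10 other genes of the family below, with dashed lines at a 2-fold difference. *Papln* and *Adamts7* are called higher, and *Adamts5*, *Adamtsl1*, *Adamtsl3* and *Thsd4* are called lower.

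The rest of the family was set beside the 10 genes. Of 16 further ADAMTS and ADAMTSL genes, *Adamts16* was not analysed here, and 10 of the other 15 were tested. Of these 10 genes, 2 were called higher and 2 lower, with a median log2 fold change of -0.48, against -0.01 over all tested genes. Over the whole family of 20 tested genes, 2 were called higher and 4 lower, against 3.44% and 6.37% of all tested genes. Of the 20, 15 had a negative log2 fold change, and the family was not tested as a set.

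Both of the other family genes called lower are ADAMTS-like. *Adamtsl3*, which like *Adamtsl1* encodes a punctin-type protein, was at 75, 67 and 74 tags in the IL-11- libraries against 7, 21 and 20 in the IL-11+ ones. Its means with SD (n = 3) were 65.2 ± 5.7 normalized CPM against 15.9 ± 7.46, which is -2.01 as log2 fold change (SE 0.289, Benjamini-Hochberg adjusted p = 6.62e-05 in edgeR's quasi-likelihood test, lower in 3 of 3 pairs). *Thsd4*, also named ADAMTSL6, encodes a protein that promotes the assembly of fibrillin microfibrils. It was at 40, 32 and 35 tags in the IL-11- libraries against 2, 6 and 8 in the IL-11+ ones, which is -2.56 as log2 fold change (SE 0.384, Benjamini-Hochberg adjusted p = 0.000107 in edgeR's quasi-likelihood test, lower in 3 of 3 pairs). For both genes the groups were far apart. Every IL-11+ count of *Thsd4* was under the minimum of the filter, so the gene was tested only because its IL-11- counts were higher. *Thsd4* did not pass the filter when any IL-11- library was left out. Fitted on the genes that pass with all 6 libraries, its log2 fold changes without IL-11- replicate 1, 2 or 3 were -2.43, -2.60 and -2.64. *Adamtsl2* and *Adamtsl5* were not called, at -0.86 (95% interval -1.70 to -0.03) and -0.61 (-1.31 to 0.10). *Adamtsl2* was called when IL-11- replicate 3 was left out, at -1.20 with a Benjamini-Hochberg adjusted p of 0.0466 in edgeR's quasi-likelihood test (0.0466 to 0.481 over the 6 fits that left out a library).

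*Papln* encodes papilin, a large matrix protein with ADAMTS-like repeats, and went the other way. Its values were 5, 7 and 11 tags in the IL-11- libraries against 34, 26 and 14 in the IL-11+ ones, which is 1.85 as log2 fold change (SE 0.419, Benjamini-Hochberg adjusted p = 0.00451 in edgeR's quasi-likelihood test, higher in 3 of 3 pairs). The groups did not overlap, but the same-numbered log2 ratios ranged widely, at 2.92, 2 and 0.56. *Adamts7*, which like *Adamts12* cuts cartilage oligomeric matrix protein, was at 11, 7 and 9 tags in the IL-11- libraries against 25, 13 and 19 in the IL-11+ ones. Its log2 fold change was 1.23 (SE 0.392, Benjamini-Hochberg adjusted p = 0.0397 in edgeR's quasi-likelihood test). The call of *Adamts7* is close to the threshold and was lost when any library other than IL-11+ replicate 2 was left out, with log2 fold changes of 0.95 to 1.42 and a Benjamini-Hochberg adjusted p of 0.0541 to 0.177 in edgeR's quasi-likelihood test. It was also lost with DESeq2 (log2 fold change 1.25, adjusted p = 0.0983) and with scaling by library totals only, where edgeR's quasi-likelihood test gave 1.14 and a Benjamini-Hochberg adjusted p of 0.0565.

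The other tested proteases were *Adamts3*, *Adamts6*, *Adamts13* and *Adamts19*, with log2 fold changes of -0.56, -0.33, -0.38 and -0.40 and 95% intervals that all include 0. *Adamts3* is a procollagen protease like *Adamts2*, and *Adamts13* is known for cutting von Willebrand factor. Besides *Adamts8*, the genes that did not pass the filter were *Adamts14*, *Adamts17*, *Adamts18* and *Adamts20*. *Adamts18* and *Adamts20* had 1 tag each over the 6 libraries.

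The start of a gene is where 5′ tags are read, and RefSeq promoter sequences (GRCm38.p6) were at hand for 5 of the 10 members, *Adamts1*, *Adamts2*, *Adamts9*, *Adamts12* and *Adamtsl4*. There was no entry for *Adamts4*, *Adamts5*, *Adamts10*, *Adamts15* and *Adamtsl1*. The 250 bases upstream of the start were searched on both strands for TGANTCA (the AP-1 motif), TTCNNNGAA (the STAT motif) and TATAAA. Among 32851 mouse promoters of this length, 6.7% hold TGANTCA, 7% hold TTCNNNGAA and 12.4% hold TATAAA. Of the 5 members, *Adamts1* held 1 match, TATAAA at 32 bases before the start, and the other 4 held none of the 3 letter strings. The upstream sequences of *Adamtsl3* and *Papln*, shown as called family genes of opposite direction with an entry, held none either. *Adamts1* is shown beside them as the evenly counted member with a match, in capitals. The regions are chr16:85803114-85803363 (minus strand, *Adamts1*), chr7:82335444-82335693 (plus strand, *Adamtsl3*) and chr12:83763384-83763633 (plus strand, *Papln*), and their G and C content is 65.6, 80 and 61.6%.
Adamts1: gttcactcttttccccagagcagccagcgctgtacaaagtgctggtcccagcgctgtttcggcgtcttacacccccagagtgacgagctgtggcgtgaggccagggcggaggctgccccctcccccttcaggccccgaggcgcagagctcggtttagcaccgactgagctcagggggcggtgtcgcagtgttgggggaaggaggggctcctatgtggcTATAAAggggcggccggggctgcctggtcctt
Adamtsl3: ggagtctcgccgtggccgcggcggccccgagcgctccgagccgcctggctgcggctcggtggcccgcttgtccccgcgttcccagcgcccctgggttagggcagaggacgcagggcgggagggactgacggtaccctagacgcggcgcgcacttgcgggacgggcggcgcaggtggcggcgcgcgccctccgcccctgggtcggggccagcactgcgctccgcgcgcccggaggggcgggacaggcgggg
Papln: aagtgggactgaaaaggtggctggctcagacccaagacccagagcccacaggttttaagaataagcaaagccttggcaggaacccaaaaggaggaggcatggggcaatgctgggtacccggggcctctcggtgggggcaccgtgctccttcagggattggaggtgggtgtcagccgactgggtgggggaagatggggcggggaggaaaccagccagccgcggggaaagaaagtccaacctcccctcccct

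Substrates, inhibitors and activators of these proteases were listed as partners, 38 genes of which 28 were tested. Of these, 5 were called higher and 3 lower in IL-11+ fibroblasts, against 3.44% and 6.37% of all tested genes. Their median log2 fold change was 0.26, against -0.01 for all tested genes. *Acan*, *Bcan*, *Col2a1*, *Comp* and *Timp4* were not analysed here, and *Ncan*, *Fmod* and *A2m* had at most 2 tags in any library.

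Among the proteoglycans, *Vcan*, which encodes versican, was called higher. It was at 366, 474 and 486 tags in the IL-11- libraries against 911, 1150 and 910 in the IL-11+ ones. The groups were far apart, and the log2 fold change was 1.33 (SE 0.175, Benjamini-Hochberg adjusted p = 2.65e-05 in edgeR's quasi-likelihood test, higher in 3 of 3 pairs). *Dcn* (0.67, 95% interval 0.21 to 1.13) and *Bgn* (0.41, 0.06 to 0.76), the small proteoglycans decorin and biglycan, were not called.

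Of 7 tested genes for procollagens and their processing, 3 were called higher and 0 lower. *Col3a1* was at 3284, 4717 and 6729 tags in the IL-11- libraries against 8619, 9045 and 9130 in the IL-11+ ones, with a log2 ratio of the groups of 1.04 (95% interval 0.61 to 1.47). *Col5a1* and *Col5a2* were at 1.07 (0.70 to 1.43) and 1.06 (0.70 to 1.43). All 3 stood just over the fold threshold and were under it with scaling by library totals only. *Col3a1* was also under it without IL-11- replicate 1, *Col5a1* without IL-11- replicate 1 or IL-11+ replicate 2, and *Col5a2* without IL-11+ replicate 1, at log2 fold changes from 0.83 to 0.97. For type I collagen, the substrate of *Adamts2*, *Col1a1* and *Col1a2* were at 0.35 (-0.05 to 0.75) and 0.42 (0.04 to 0.81) and were not called.

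Of 5 tested genes of microfibrils, 0 were called higher and 2 lower. *Mfap5*, which encodes a glycoprotein of microfibrils, was at 138, 179 and 216 tags in the IL-11- libraries against 29, 33 and 51 in the IL-11+ ones, which is -2.07 as log2 fold change (SE 0.209, Benjamini-Hochberg adjusted p = 1.25e-06 in edgeR's quasi-likelihood test, lower in 3 of 3 pairs). *Ltbp1*, which stores latent TGFβ on microfibrils, was at 164, 143 and 162 tags in the IL-11- libraries against 65, 42 and 74 in the IL-11+ ones, with a log2 ratio of the groups of -1.22 (95% interval -1.63 to -0.80). *Fbn1*, the fibrillin to which ADAMTSL4 binds, had a log2 fold change of -0.17 (-0.52 to 0.17).

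Inhibitors and uptake were covered by 5 tested genes. *Timp3*, the main tissue inhibitor of the aggrecanases, was at 819, 1050 and 934 tags in the IL-11- libraries against 754, 1097 and 1442 in the IL-11+ ones. The groups overlapped, and the log2 fold change was 0.37 (95% interval -0.04 to 0.79). *Timp1*, a poor inhibitor of ADAMTS proteases, was the one called, at 172, 227 and 343 tags in the IL-11- libraries against 958, 804 and 918 in the IL-11+ ones, 2.03 as log2 fold change (95% interval 1.62 to 2.45). *Lrp1*, the receptor that clears ADAMTS4 and ADAMTS5 from the matrix, was at 0.53 (0.17 to 0.88), and *Timp2* and *Reck* at -0.52 (-0.89 to -0.14) and -0.56 (-1.19 to 0.07). Of 8 tested genes for activation and secretion, 1 was called. This was *Pcsk6*, a proprotein convertase, at 13, 23 and 17 tags in the IL-11- libraries against 4, 4 and 8 in the IL-11+ ones, with a log2 ratio of the groups of -1.55 (95% interval -2.48 to -0.63). The call of *Pcsk6* was lost with DESeq2 (-1.57) and without IL-11+ replicate 1 or 2 (-1.41 and -1.39). The gene did not pass the filter when any IL-11- library was left out. Fitted on the genes that pass with all 6 libraries, it was called without IL-11- replicate 1 or 3 (-1.70 and -1.65). Without IL-11- replicate 2 it was not called there, at -1.28 with a Benjamini-Hochberg adjusted p of 0.12 in edgeR's quasi-likelihood test. *Furin*, the convertase that removes most ADAMTS propeptides, was at 0.47 (-0.09 to 1.03). *Pofut2* and *B3glct*, which add the sugars that thrombospondin repeats need for secretion, were at 0.06 (-0.37 to 0.48) and 0.41 (-0.17 to 0.99).

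**Figure D3:**
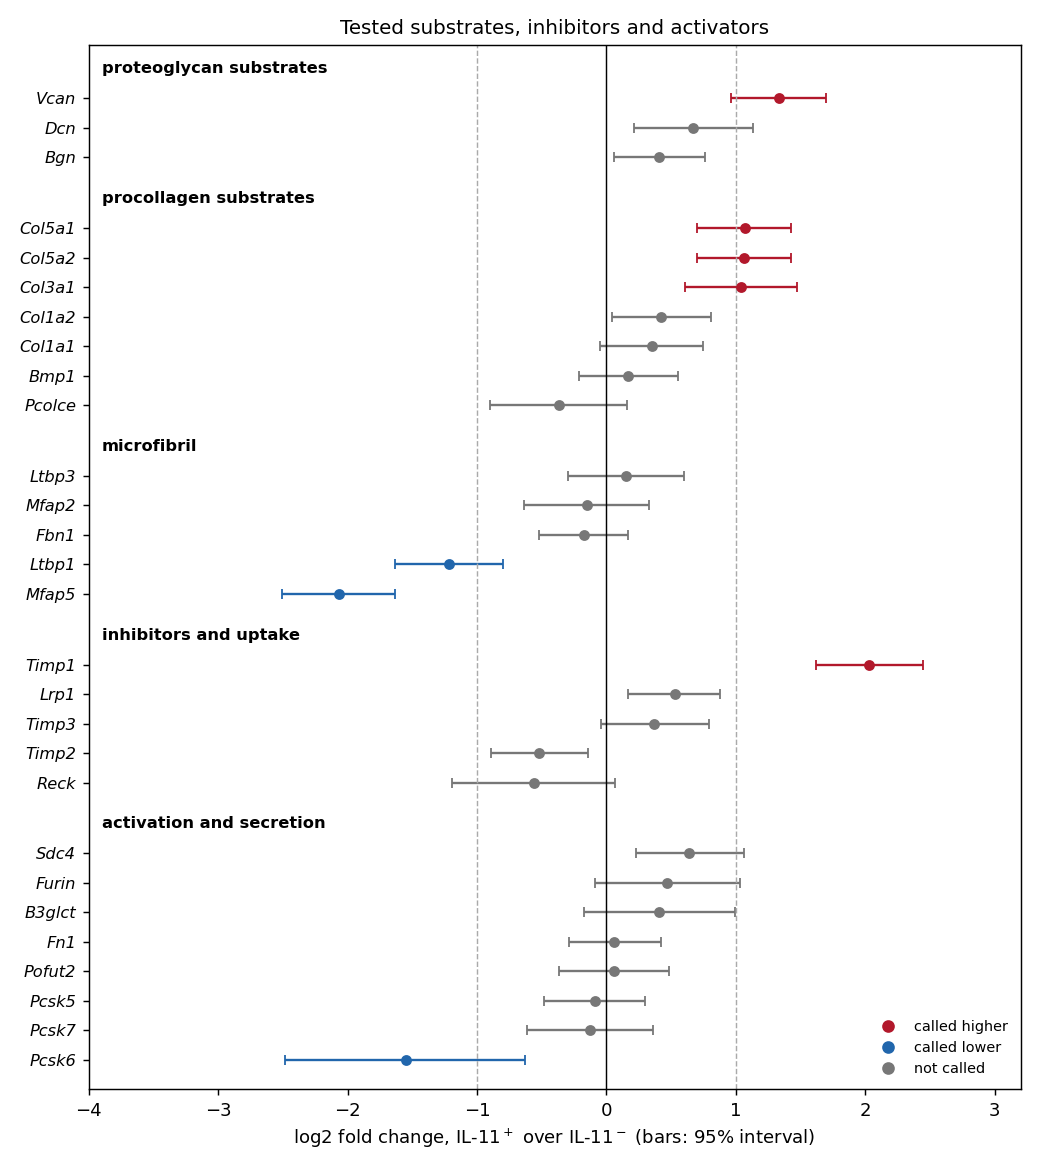
Log2 fold change of IL-11+ over IL-11- fibroblasts (horizontal axis, points) with its 95% interval (bars) for the 28 tested partner genes, grouped by role, with dashed lines at a 2-fold difference. The 3 called collagen genes lie just past the dashed line at 1, *Timp1* and *Vcan* lie farther out, and *Mfap5*, *Pcsk6* and *Ltbp1* are called lower.

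The related membrane proteins of the ADAM family, not all of which are active proteases, gave 8 tested genes of 10. Of these, 1 was called higher and 0 lower, against 3.44% and 6.37% of all tested genes. *Adam12* was at 9, 24 and 28 tags in the IL-11- libraries against 59, 50 and 32 in the IL-11+ ones, with a log2 ratio of the groups of 1.38 (95% interval 0.68 to 2.08). The median over the 8 genes was 0.31, against -0.42 over the 10 ADAMTS and ADAMTSL members. *Adam22* had 6, 4 and 15 tags in IL-11- and 0 tags in each IL-11+ library, with most of the IL-11- tags in replicate 3.

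Markers of other cell types of the colon wall moved between the same libraries. All 8 smooth muscle markers were called lower in IL-11+ fibroblasts, with a median log2 fold change of -4.15. Their summed level was 2662, 3312 and 4163 normalized CPM in IL-11- and 98.6, 156 and 344 in IL-11+ libraries, and *Myh11* was the most abundant of them. Of 8 pericyte markers, 5 were called lower and 0 higher, and the sum, led by *Rgs5*, was 2831, 2425 and 2289 against 1088, 909 and 815. In the same list, *Abcc9* and *Kcnj8* had positive log2 fold changes of 0.66 (95% interval 0.28 to 1.05) and 0.71 (0.24 to 1.19), under the fold threshold. All 3 markers of interstitial cells of Cajal were called lower, with sums of 271, 168 and 258 against 21.2, 20.3 and 50.5, led by *Ano1*. Of these, *Etv1* fell under the fold threshold without IL-11- replicate 1 (-0.93 against -1.12 as log2 fold change). The part of these cells in the lower counts of *Adamts5*, *Adamtsl1*, *Adamtsl3* and *Thsd4* was not tested.

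Fibroblast markers were high in both groups. Of 10, all tested, 2 were called higher, *Col3a1* and *Pdpn*, and with scaling by library totals only neither was (0.96 and 0.97 as log2 fold change). *Pdpn* was also under the fold threshold without IL-11- replicate 1 (0.94) or IL-11+ replicate 1 (0.97), and *Col3a1* without IL-11- replicate 1 (0.83). *Thy1*, not called at 0.88, was called higher without IL-11- replicate 3 or IL-11+ replicate 2, with 0.71 to 1.21 over the alternatives. *Lum* and *Vim* of this list had negative log2 fold changes, -0.64 (95% interval -1.06 to -0.21) and -0.27 (-0.66 to 0.11). The sum over the list, led by *Dcn*, was 22828, 22909 and 25273 normalized CPM in IL-11- and 43104, 34860.1 and 30929 in IL-11+ libraries. *Col1a1*, *Col1a2*, *Col3a1* and *Dcn* are in this list and among the partners. *Pecam1* and *Epcam*, which encode CD31 and EpCAM, had at most 1 tag in any library, and *Ptprc*, which encodes CD45, had 1, 2 and 7 against 0, 3 and 0 tags. Summed over the lists, markers of blood endothelium (5 genes, *Cdh5* not analysed here, with *Pecam1*, *Kdr* and *Vwf* at most at 2 tags in any library) were at 40.1, 27.3 and 36.1 against 18, 8.12 and 6.67 normalized CPM, led by *Tek*. Leukocyte markers, led by *Cd74*, were at 29.6, 39.6 and 25.5 against 19.1, 17.3 and 13.4. Epithelial, lymphatic and mesothelial markers had at most 7, 9 and 10 tags per gene in any library. *Hbb-bs*, from red blood cells, was at 34, 0 and 141 tags in the IL-11- libraries against 5, 0 and 9 in the IL-11+ ones.

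**Figure D4:**
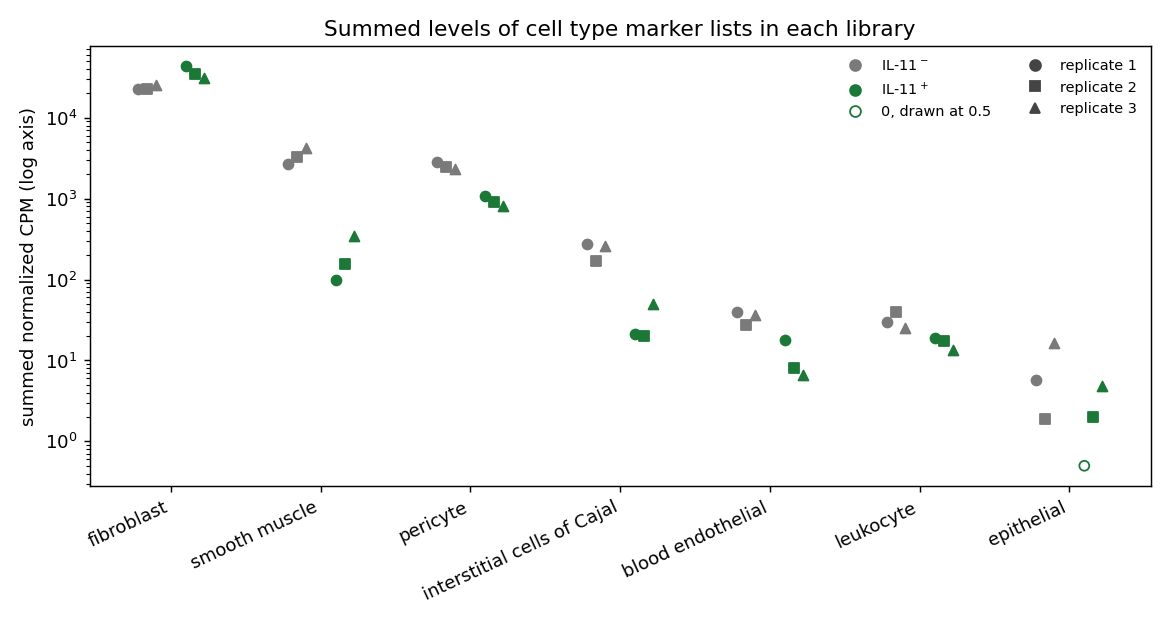
Summed normalized CPM (vertical axis, log scale) of 7 cell type marker lists (horizontal axis) in each IL-11- (grey) and IL-11+ (green) library, with one symbol shape per replicate number and an open symbol for a sum of 0. Smooth muscle sums are 2662 to 4163 in IL-11- and 98.6 to 344 in IL-11+ libraries, while fibroblast sums are 22828 or more in all 6.

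The tested genes most like 2 of the members over the 6 libraries were named by the Pearson correlation of log2 normalized CPM, as a description. For *Adamtsl1*, the member with the smallest p among those with a negative log2 fold change, these were *Macf1* (r = 0.995), *Pxmp4* (r = 0.994) and *Decr2* (r = 0.993). Their own log2 fold changes were -0.43, -1.07 and -1.28. For *Adamts9* they were *Pi4k2b* (r = 0.985), *Gm39275* (r = 0.983) and *Zfp972* (r = 0.981), with log2 fold changes of 0.71, 0.63 and 0.97. The 6 points fall into 2 groups and share depth within each library, and the coefficients are the highest of all tested genes.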

How the data were processed

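Tags were measured in 6 libraries, 3 of IL-11+ and 3 of IL-11- fibroblasts, grouped by the sample labels. The deposited values are counts of 5′ tags per gene symbol, without normalization. Per the methods, the authors used cutadapt 1.18 for trimming and Bowtie2 2.2.5 for mapping to RefSeq transcripts. How they treated tags of several genes, or molecular identifiers, is not given in the sources used here. Depth was 1022851 to 1169817 tags per library, where 3 tags stand at 2.46 to 3.18 normalized CPM.

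The filter kept 9334 genes, those that reach 10 tags in 3 or more libraries. Tests ran in edgeR 4.0.16 (R 4.3.3) on TMM-scaled counts with group as the only term, by its quasi-likelihood test, with p adjusted after Benjamini and Hochberg over all of them. Genes were called past a fold change of 2 with an adjusted p below 0.05, as in the methods. As printed, the methods exclude genes with 10 or more tags, which was read here as keeping them. Intervals are 95% intervals of the log2 fold change. The fit was tested on simulated data. Replicates of a group differed by more than sampling noise (chi-square per degree of freedom 2.51 to 5.72).

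The methods name 3 mice, and labels number the libraries 1 to 3 in both groups. Over 5063 genes, deviations of same-numbered libraries from their group means correlated at 0.231, 0.186 and 0.268, across genes, which are not independent replicates. The numbers were therefore taken as pairs, and a fit blocked on them was added. SE, intervals and p in the text are from the fit without this block unless stated. With the block, edgeR's quasi-likelihood test gave Benjamini-Hochberg adjusted p of 5.61e-06 for *Adamts5* and 7.39e-07 for *Adamtsl1*.

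Alternatives were RLE factors, library totals only, iterative TMM with the exact test, 2 looser filters, DESeq2 1.42.0, calls by adjusted p alone, the block, and each library left out. Fits without a library on the genes of the 6-library filter were chosen after seeing the data. Named genes are the 10 members, the listed family genes, partners, relatives and markers, *Il11*, and the 3 genes most like the member with the smallest p in each direction. A marker list is not reported here. The members and lists were chosen with earlier results of these data known. Positions come from GENCODE M21 and promoters from RefSeq.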

Additional observations from a re-analysis of the deposited data

How the results depend on the processing

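Under 20 alternatives, 14 planned and 6 chosen after seeing the data, none of the 10 members was called higher. The members called lower were 2 in all except the fits that left out a library, which gave 1 to 3. In those, *Adamts5* lost its call without IL-11- replicate 3 or IL-11+ replicate 2, and *Adamts10* was called without IL-11+ replicate 3. Other family genes called higher were 1 with library totals only and with DESeq2, and 1 to 2 with a library left out. Those called lower were 3 with both looser filters and 1 to 3 with a library left out, and *Thsd4* did not pass the filter in the fits that gave 1. Partner genes called higher were 2 with library totals only, 8 with the adjusted p alone and 3 to 5 with a library left out, and those called lower were 2 with DESeq2 and 2 to 3 with a library left out.

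Over all genes, the adjusted p alone gave 638 higher and 812 lower, against 321 and 595 with the fold threshold. Leaving out a library gave 251 to 329 higher and 341 to 580 lower. The lowest counts of lower genes were 341 and 355, without IL-11- replicate 1 or 2, and on the genes of the 6-library filter these fits gave 483 and 508. Without IL-11+ replicate 3 there were 579. The cause of these changes was not tested. A fit blocked on replicate number called 337 genes higher and 648 lower. The block left the counts of members (0 higher, 2 lower), other family genes (2 and 2) and partners (5 and 3) as they were.

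Signs changed for 4 family genes, none of them called. *Adamts1* was at -0.01 with library totals only and 0.00 to 0.19 with a library left out. *Adamts4* was at -0.04 with library totals only and -0.19 to 0.24 with a library left out, negative without IL-11- replicate 2 (-0.07, or -0.05 on the genes of the 6-library filter) and IL-11+ replicate 3. *Adamts12* was at 0.01 without a filter, -0.23 to 0.08 with a library left out, and positive without IL-11- replicate 1 (0.07) or 2 (0.04 and 0.06) and IL-11+ replicate 2 (0.06) or 3 (0.04). *Adamts6* was at 0.04 without IL-11+ replicate 3 and at -0.89 without IL-11+ replicate 1. Among the partners, 4 genes that were not called changed sign in at least 1 alternative.

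There are 3 libraries per group and no untreated mice. *Adamts3*, *Adamts6*, *Adamts7* and *Adamts15* have at most 25 tags in any library. Their 95% intervals are wide, at -1.46 to 0.34, -1.22 to 0.56, 0.41 to 2.05 and -1.49 to 0.27. *Papln*, called higher, has at most 11 tags in any IL-11- library and a wide 95% interval of 0.97 to 2.72.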
